A study of Mus musculus with 4 samples.

Results

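The p53 pathway genes described here are 10 rows of a gene-level RNA sequencing table of 20325 gene symbols, chosen by symbol: Trp53, which encodes p53, and 9 of its best-known target genes (Mdm2, Cdkn1a, Ccng1, Phlda3, Perp, Sesn1, Sesn2, Bax and Bbc3). All 10 were found. The RNA came from mouse C3H10T1/2 cells, an embryo-derived multipotent mesenchymal line able to give rise to fat, bone and cartilage cells, at passages 10 to 15. Both groups stably expressed an added FLAG-HA-tagged histone H3.3: the wild type protein (WT, n = 2 libraries), or H3.3 with lysine 36 changed to methionine (K36M, n = 2 libraries). K36M histone inhibits the enzymes that methylate lysine 36 of histone H3, and the comparison asks how expression differs between cells with the mutant and cells with the wild type histone. The sources used here do not say whether each line was a clone or a pool, nor whether replicates were separate cultures. The p-values therefore reflect library-to-library spread, and that spread may be only technical.

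p53 is a transcription factor that damaged or stressed cells stabilise. It is controlled mostly at the protein level, by the ubiquitin ligase MDM2, which is itself a p53 target and so closes a feedback loop. Its other targets stop the cell cycle, lower growth signalling, repair DNA or open the mitochondrial route to cell death. In mesenchymal lines p53 restrains proliferation and is often lost in sarcoma. The libraries measured RNA, not p53 protein or its binding to DNA.

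p53 binds a palindromic 10-letter consensus, the p53 decamer, usually as 2 copies close together. RefSeq promoter windows on GRCm38.p6, from 250 bases before to 50 after each annotated start, were at hand for 9 of the 10 genes (all but Perp), 13 windows in all. The expression table was made on the build mm9, so these windows serve for sequence only. The decamer lay in 6 of the 13 windows, against 8.36% of the 32817 distinct windows in the table. The stretches below, 25 bases to each side of the matches, are shown so that each p53-like sequence can be set beside the expression of its gene. They run 5′ to 3′ on the strand of the gene, with the decamers in capitals.
Trp53, chr11:69580259-69580318, plus strand: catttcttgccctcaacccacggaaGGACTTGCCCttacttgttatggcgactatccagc
Mdm2, chr10:117710910-117710969, minus strand: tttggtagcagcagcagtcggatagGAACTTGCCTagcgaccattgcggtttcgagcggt
Cdkn1a, chr17:29090881-29090962, plus strand: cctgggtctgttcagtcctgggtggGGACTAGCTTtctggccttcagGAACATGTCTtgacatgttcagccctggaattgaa
Ccng1, chr11:40755437-40755496, minus strand: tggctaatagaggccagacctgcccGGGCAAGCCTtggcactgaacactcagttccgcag
Bax, chr7:45467065-45467124, minus strand: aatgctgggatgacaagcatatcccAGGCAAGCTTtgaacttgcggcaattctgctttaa
Sesn1, chr10:41887241-41887300, plus strand: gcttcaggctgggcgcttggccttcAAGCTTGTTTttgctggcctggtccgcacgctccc

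The upstream start of Cdkn1a was the one with 2 decamers, separated by 12 bases; a pair within 13 bases occurred in 0.0731% of all windows. The match in the Trp53 window began 75 bases before the start, and those of Sesn1, Ccng1, Mdm2 and Bax 173, 185, 186 and 201 bases before it. The consensus was searched with no mismatch, and reads the same on both strands. The 10 letters directly after the last Cdkn1a decamer miss the consensus at their first letter only, and so were not counted. No match was found in the windows of Phlda3, Sesn2 and Bbc3, nor in the other start of Cdkn1a and of Sesn1. The guanine and cytosine content of the 13 windows ran from 52.7% to 78.0%, against a median of 52.7% over all windows. These matches describe the letters of the windows only. Genes with a match included risers (Trp53, Mdm2, Ccng1, Bax), Sesn1, which fell, and Cdkn1a, which was nearly level, as the values below show.

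Library totals ranged from 23343297 to 56041798 expected counts, which are read numbers estimated by RSEM, and the K36M libraries were the deeper. Levels are in CPM, expected counts over a library size adjusted by TMM, a trimmed mean of gene ratios. Each of the 10 genes had at least 100 counts in every library, the lowest being 154 for Bbc3 in WT replicate 2. All 12 mesenchymal markers listed had counts in both groups, with a summed level of 50579 to 50898 CPM in WT and 30603 to 32428 CPM in K36M; Thy1 was 11.2-fold higher in K36M, and Fn1 and Col3a1 3.04-fold and 2.88-fold lower. Markers of other cell types also differed in sum. Blood and macrophage markers summed to 7.26 to 8.08 CPM in WT and 40.6 to 42.2 CPM in K36M, mostly through Hba-a1 (0.171 to 26.0 CPM), with Ptprc at 0 counts in WT and 8 and 7 in K36M. Neural and glial markers summed to 109 to 112 CPM in WT and 42.6 to 43.3 CPM in K36M, and endothelial markers to 38.2 to 39.6 and 16.7 to 18.6 CPM. The markers singled out here were named after their values were seen, and the part of these markers in the differences of p53 pathway genes was not tested. In such bulk RNA, fewer cells expressing a gene and less RNA of it per cell cannot be told apart.

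The p53 gene and 5 of its targets rose in K36M cells (Trp53, Mdm2, Ccng1, Bax, Bbc3 and Sesn2), each by less than 2-fold. Phlda3, Perp and Sesn1 fell by more than 2-fold. Cdkn1a, the gene of the cell cycle inhibitor p21, was nearly level, 1.07-fold lower. By edgeR's quasi-likelihood test, adjusted over the 13162 genes tested by the Benjamini-Hochberg method, 6 of the 10 genes were called higher and 4 lower, with 0.05 as the limit for the adjusted p. The 4 became 3 without either WT library, through the loss of Cdkn1a. Over all genes tested 75.6% were called, 38.5% higher and 37.1% lower, so a call as such sets none of these genes apart. Falls of at least 2-fold made up 8.69% of all genes and 3 of these 10, and rises of at least 2-fold 12.7% of all genes and 0 of these 10. The median log2 fold change was 0.36 over the 10 genes and 0.00 over all genes tested. The WT and K36M values did not overlap for any of the 10, as for 87.1% of all genes.

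**Figure D1:**
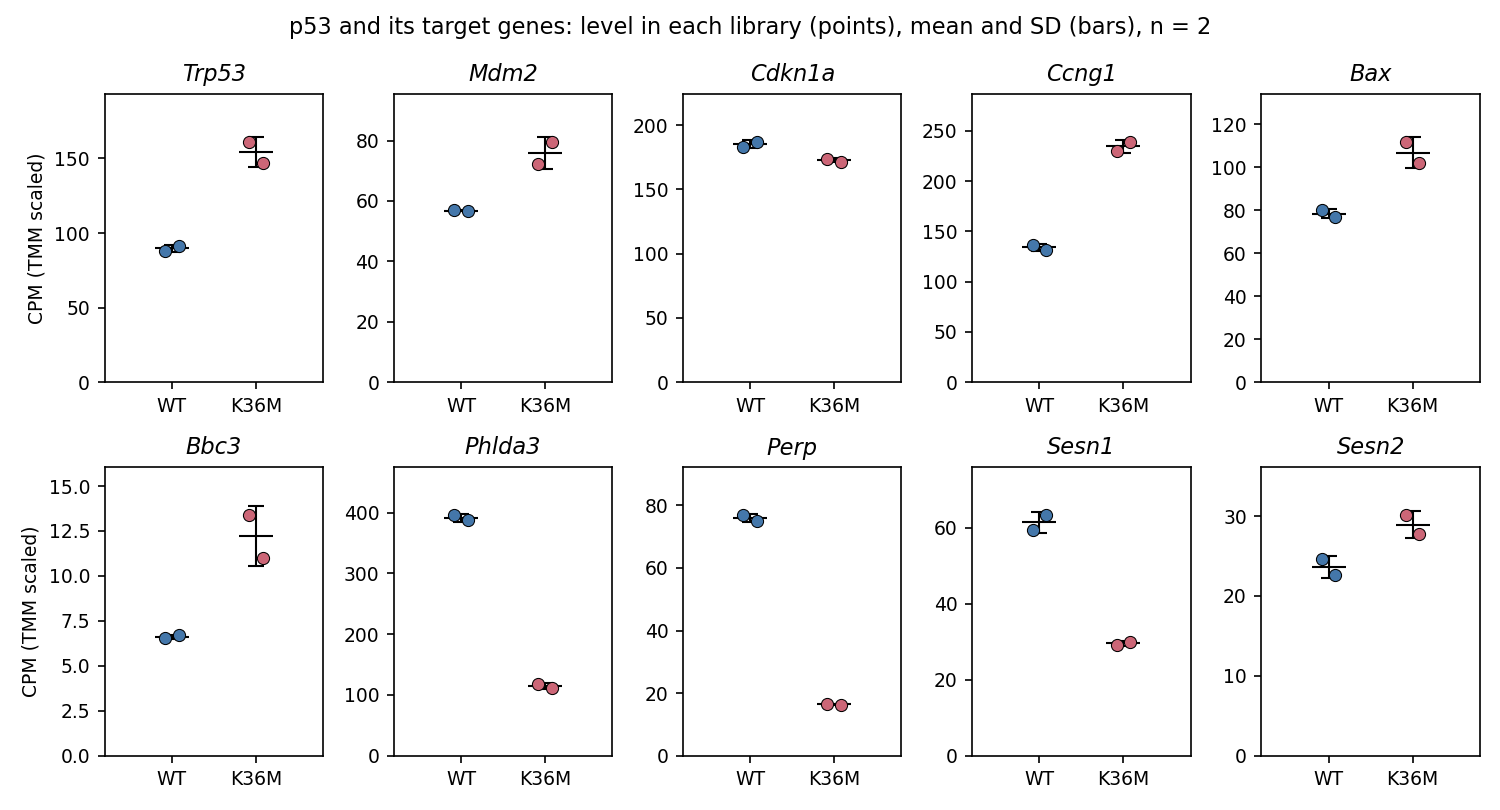
Level of each gene in CPM (vertical axes, each starting at 0) in the 2 WT libraries (blue points) and the 2 K36M libraries (red points); horizontal bars are means and error bars SDs. Trp53, Mdm2, Ccng1, Bax, Bbc3 and Sesn2 are higher in K36M, Phlda3, Perp and Sesn1 are lower, and Cdkn1a lies at 183 and 187 CPM in WT and 174 and 172 CPM in K36M.

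The WT libraries had 88.2 and 91.6 CPM of Trp53, the K36M libraries 161 and 147 CPM. Both K36M libraries lay well above both WT libraries, with a wider spread in K36M. The means were 89.9 ± 2.37 CPM (SD, n = 2) and 154 ± 10.0 CPM, a 1.72-fold rise (log2 fold change 0.78, SE 0.05, adjusted p = 5.18e-11 by edgeR). Among all genes tested, 15.4% had a higher log2 fold change. GENCODE M21 also lists a Trp53 pseudogene that has no row in the table, and whether reads from it could have been counted on Trp53 was not given in the sources used here.

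Mdm2, the ligase that marks p53 for destruction, measured 56.9 and 56.7 CPM in the WT pair of libraries against 72.2 and 79.7 CPM in the K36M pair. The WT libraries were almost equal and both K36M libraries were higher. The rise was 1.33-fold (log2 fold change 0.41, SE 0.05, adjusted p = 1.11e-06 by edgeR). Mdm4, the relative of Mdm2 that binds p53 and blocks its transactivation, moved the other way, from 87.4 ± 5.11 to 74.7 ± 1.14 CPM (1.17-fold lower, adjusted p = 0.000365).

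The cell cycle targets did not move together. Cdkn1a, whose product p21 inhibits cyclin-dependent kinases, measured 183 and 187 CPM in the WT pair of libraries against 174 and 172 CPM in the K36M pair. The groups were separate but close, with a log2 fold change of -0.10 and a 95% interval from -0.18 to -0.02 (adjusted p = 0.0271 by edgeR). The call was lost without WT replicate 1 (log2 fold change -0.12, adjusted p = 0.0825) and without WT replicate 2 (-0.09, 0.210), and under total-count scaling (-0.05, 0.273) among others. Ccng1, which encodes cyclin G1, a partner of protein phosphatase 2A in MDM2 regulation, measured 137 and 132 CPM in the WT pair of libraries against 230 and 239 CPM in the K36M pair. All libraries were far apart by group, and the rise was 1.75-fold (log2 fold change 0.80, SE 0.04, adjusted p = 2.01e-12 by edgeR).

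Both cell death genes of the mitochondrial route rose. Bax, the pore-forming member of the BCL2 family, measured 79.9 and 76.9 CPM in the WT pair of libraries against 112 and 102 CPM in the K36M pair. It was 1.37-fold higher (log2 fold change 0.45, SE 0.05, adjusted p = 2.20e-07 by edgeR). Bbc3, which encodes PUMA, a protein that frees or activates BAX, measured 6.54 and 6.69 CPM in the WT pair of libraries against 13.4 and 11.0 CPM in the K36M pair. The K36M libraries differed from each other, yet both lay clearly above WT. The rise was 1.87-fold (log2 fold change 0.90, SE 0.11, adjusted p = 6.91e-07 by edgeR), and 13.8% of all genes had a higher log2 fold change. It was the largest estimate of the 6 rises, but its 95% interval, 0.67 to 1.13, included those of Ccng1 and Trp53.

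Phlda3 and Perp gave the largest differences of the 10 genes. Phlda3 encodes a small membrane-binding protein that competes with the kinase AKT for membrane lipids and so restrains AKT. It measured 396 and 387 CPM in the WT pair of libraries against 118 and 111 CPM in the K36M pair, a value 3.41-fold lower (log2 fold change -1.77, SE 0.04, adjusted p = 1.15e-17 by edgeR). Perp encodes a tetraspan membrane protein of desmosomes, the junctions that rivet epithelial cells together, and takes part in p53-dependent death. It measured 76.9 and 75.0 CPM in the WT pair of libraries against 16.5 and 16.3 CPM in the K36M pair, a value 4.63-fold lower (log2 fold change -2.21, SE 0.05, adjusted p = 1.31e-17 by edgeR). In both genes the libraries of a group were nearly equal and the groups far apart. Of all genes tested, 4.35% had a lower log2 fold change than Phlda3 and 3.17% a lower one than Perp.

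The sestrins moved in opposite directions. These stress proteins restrain the growth kinase complex mTORC1 by binding its GATOR2 regulator, and sestrin 2 is also a leucine sensor. Sesn1 measured 59.4 and 63.3 CPM in the WT pair of libraries against 29.1 and 30.0 CPM in the K36M pair, a value 2.08-fold lower (log2 fold change -1.06, SE 0.05, adjusted p = 1.01e-12 by edgeR). Sesn2 measured 24.6 and 22.6 CPM in the WT pair of libraries against 30.1 and 27.7 CPM in the K36M pair, a value 1.23-fold higher (log2 fold change 0.30, SE 0.07, adjusted p = 0.000457 by edgeR). The fall of Sesn1 was wide against the spread of its libraries, while the rise of Sesn2 was the smallest of the 6. Within each library, which needs no scaling, the ratio of Sesn2 to Sesn1 counts was 0.413 and 0.358 in WT and 1.04 and 0.924 in K36M. Sesn3, the family member tied to FOXO factors, fell with Sesn1 (log2 fold change -0.39).

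**Figure D2:**
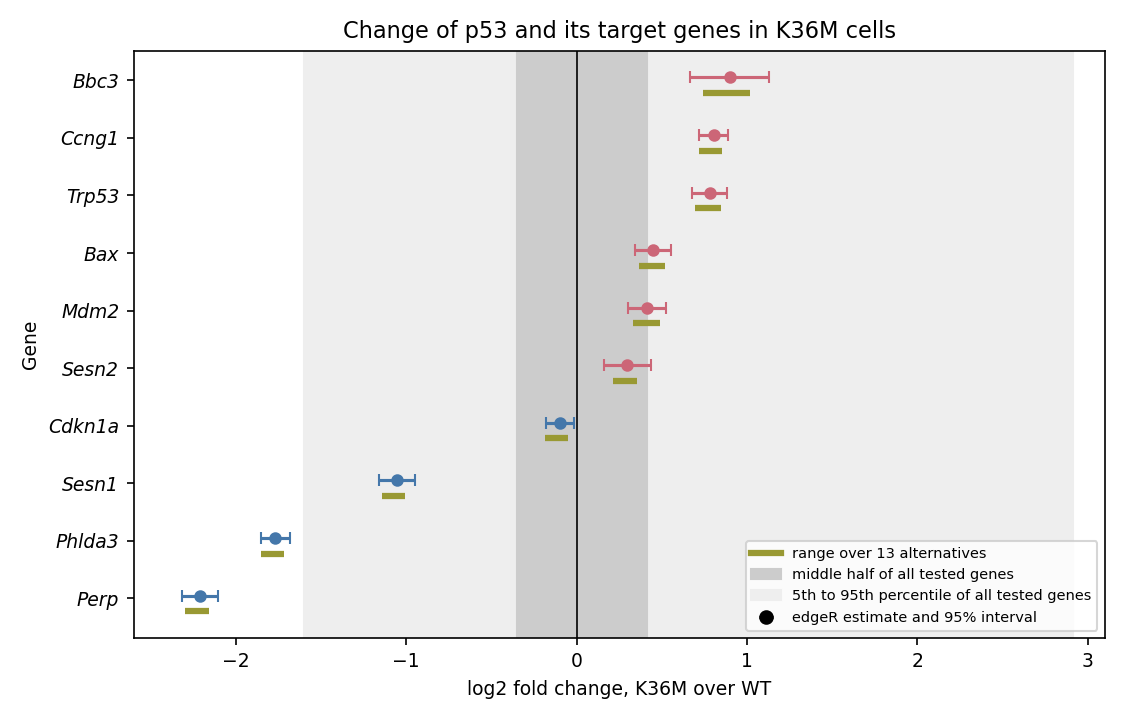
Log2 fold change of each gene, K36M over WT (horizontal axis), with its edgeR estimate and 95% interval (points and bars) and, beneath it, the range over 13 alternative analyses; the shaded bands span the 25th to 75th and the 5th to 95th percentiles of all tested genes. Perp (-2.21) and Phlda3 (-1.77) lie below the 5th percentile of -1.60, while the 6 genes that rose lie between 0.30 and 0.90.

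Set against Trp53 in the same library, the targets gave different values. The ratio of counts to Trp53 moved least for Ccng1 and Bbc3: for Ccng1 it was 1.55 and 1.44 in WT and 1.43 and 1.63 in K36M, and for Bbc3 0.0741 and 0.0731 in WT and 0.0829 and 0.0749 in K36M. Only the Ccng1 values overlapped between the groups, among the 9 ratios. The CPM values of 87.1% of all genes tested did not overlap either, and the like share for ratios to Trp53 was not computed. The mean ratios of Mdm2, Bax and Sesn2 were 1.28-fold, 1.26-fold and 1.40-fold lower in K36M. The Cdkn1a ratio was 2.07 and 2.04 in WT and 1.08 and 1.17 in K36M, 1.83-fold lower. The ratios of Sesn1, Phlda3 and Perp were 3.55-fold, 5.85-fold and 7.93-fold lower. These ratios do not depend on library scaling and were not tested; with 2 libraries against 2 an exact two-sided permutation test cannot go below p = 0.333.

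**Figure D3:**
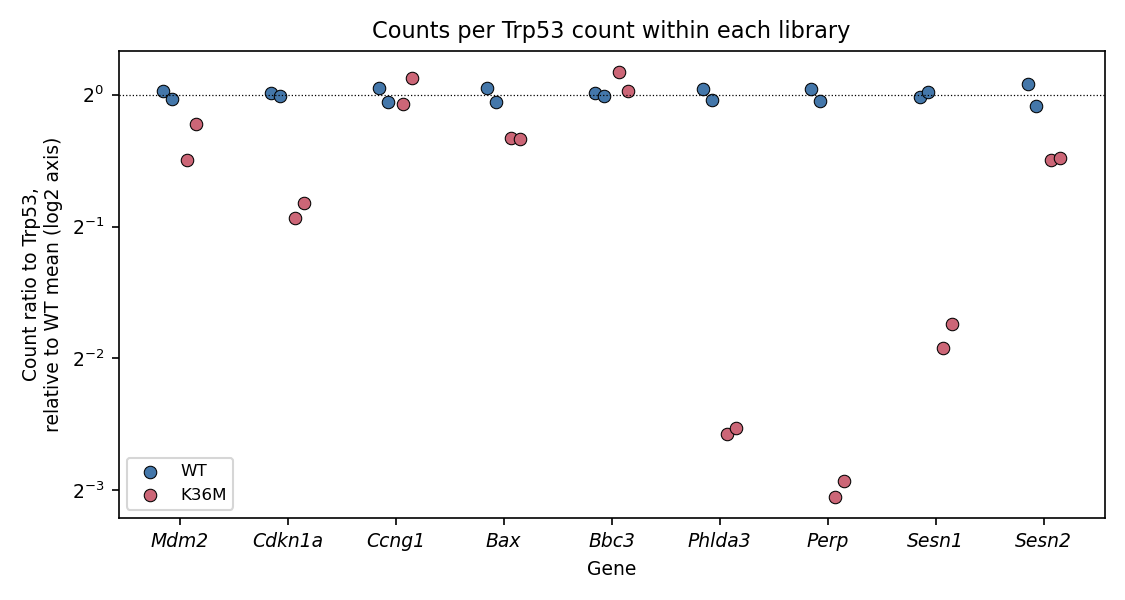
Expected counts of each target divided by those of Trp53 in the same library, relative to the mean of the WT libraries (vertical axis, log2 scale), for WT (blue) and K36M (red) libraries. Ccng1 and Bbc3 stay near the dotted line, Cdkn1a is 1.83-fold lower in K36M, and Perp is 7.93-fold lower.

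Other p53 targets, in 4 lists by role, likewise changed in both directions. The counts of this and the later lists are descriptions with no test of the list, to be read against the 38.5% higher and 37.1% lower among all genes tested. Of 42 listed genes 41 were tested: 23 were higher (56.1%), 12 lower (29.3%) and 6 not called, with a median log2 fold change of 0.26. The 23 include Casp1, which passed the filter on low counts only through its K36M libraries, where it was high. Of the 12 genes of arrest and growth control 7 rose and 4 fell. The receptor tyrosine kinase gene Epha2 rose from 17.4 ± 0.320 to 54.6 ± 3.99 CPM, the phosphatase gene Ptprv 3.18-fold at 3.46 CPM in K36M, and the stress gene Gadd45a 1.97-fold. The tetraspanin gene Cd82, a suppressor of metastasis, fell from 132 ± 4.76 to 41.8 ± 3.06 CPM, and the antiproliferative gene Btg2 2.16-fold.

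Among 11 tested cell death targets 8 rose and 3 fell (median log2 fold change 0.68), against 38.5% and 37.1% of all genes; Casp1, one of the 8, passed the filter on low counts only through its K36M libraries. Eda2r, an ectodysplasin receptor of the TNF receptor family, rose from 8.30 ± 0.434 to 20.3 ± 1.54 CPM, and Pidd1 (listed as Lrdd), which nucleates a caspase-2 complex, rose 2.04-fold. The death receptor gene Fas fell from 12.7 ± 0.964 to 4.34 ± 0.290 CPM and the death-associated kinase gene Dapk1 fell 1.90-fold. Pmaip1, which encodes the BH3 protein NOXA, had at most 1.01 counts in any library and was not tested. All 8 targets of DNA repair and nucleotide supply differed by less than 2-fold. Of these, 4 rose and 3 fell, with the polymerase gene Polk 1.47-fold higher and the nucleotide excision genes Ddb2 and Ercc5 1.75-fold and 1.26-fold lower. Of 10 metabolic targets 4 rose and 2 fell. The glutaminase gene Gls2 rose 1.98-fold and the thiamine transporter gene Slc19a2 1.51-fold, while the metalloreductase gene Steap3 was 1.23-fold lower and Aldh4a1, of proline breakdown, 1.19-fold lower, a call lost without WT replicate 1 (adjusted p = 0.0555).

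**Figure D4:**
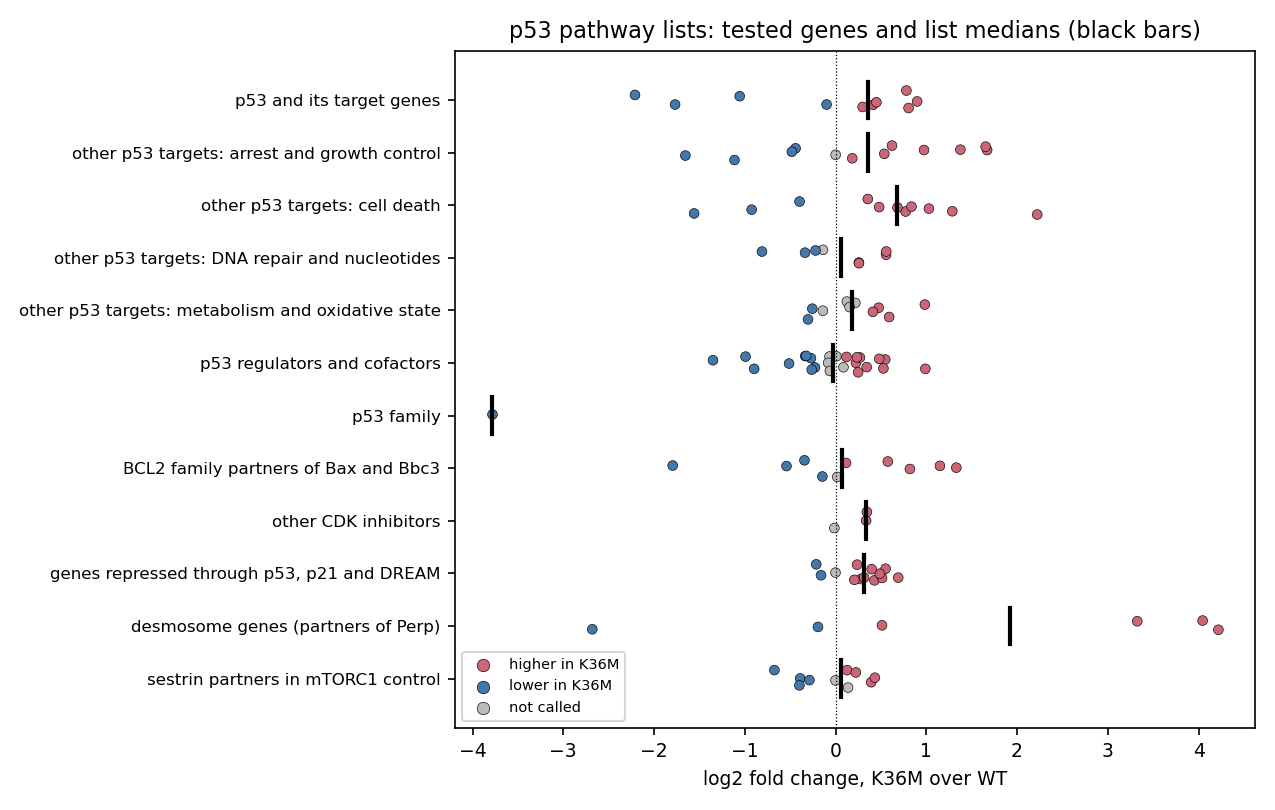
Log2 fold change, K36M over WT (horizontal axis), of every tested gene on each p53 pathway list (rows), coloured by its call, with the list's median as a black bar; vertical scatter within a row has no meaning. Every list with more than 3 tested genes holds both higher and lower genes. Casp1 and 3 of the desmosome genes passed the filter only through K36M. The median over the 10 p53 pathway genes is 0.36.

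Of 24 tested regulators and cofactors of p53, 10 rose and 9 fell (median log2 fold change -0.03), near the shares of 38.5% and 37.1% among all genes. The damage kinase genes Chek1 and Atm rose 1.99-fold and 1.46-fold. Ppp1r13b and Trp53bp2, which encode ASPP1 and ASPP2, proteins that direct p53 towards cell death genes, fell from 38.7 ± 1.08 to 15.1 ± 0.484 CPM and from 46.8 ± 0.613 to 23.4 ± 0.746 CPM. Cdkn2a, whose ARF product inhibits MDM2, was at or below 2 counts in every library, so no difference was detectable at this depth.

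Of the other p53 family genes, Trp63 fell from 6.37 and 5.52 CPM in WT to 0.370 and 0.518 CPM in the mutant, a 13.8-fold drop (adjusted p = 4.91e-12 by edgeR). The authors' deposited table of at least 10-fold changes lists it at a ratio of 0.0751, and lists none of the 10 p53 pathway genes. Trp73 had 0 counts in both WT libraries and 10 and 3 in the K36M libraries. p63 governs stratified epithelium, where Perp is also a known target of it, so the levels of epithelial and desmosome genes are given beside the fall of Perp. Of 12 desmosome genes 6 passed the filter on low counts, and Dsp, Pkp2 and Pkp3 did so only through the K36M libraries, where they were high, so no tally is drawn. Pkp1, a plakophilin of stratified epithelium, fell from 10.1 ± 0.979 to 1.54 ± 0.231 CPM and Pkp4 by 1.14-fold. Jup and Dsp were named after their values were seen: Jup was 1.43-fold higher in K36M (25.6 ± 1.63 CPM there; adjusted p = 4.72e-06 by edgeR), and Dsp went from 0.102 ± 0.0834 to 1.03 ± 0.359 CPM. Pkp2 went from 0.186 ± 0.079 to 3.21 ± 0.461 CPM, and Pkp3, with 3 counts in WT and 112 in K36M, had a ratio of 19.5 with a counting interval from 6.50 to 96.0. The 12 epithelial markers summed to 11.4 to 12.6 CPM in WT and 25.6 to 27.1 CPM in K36M, with Epcam and Cldn4 at 0 in every library. Most of that sum in K36M was Cdh1, the E-cadherin gene, which rose from 5.73 ± 0.233 to 23.2 ± 1.25 CPM (adjusted p = 4.57e-13 by edgeR). The keratin genes went both ways. Krt14 fell from 5.61 ± 0.505 to 0.747 ± 0.0391 CPM. At low levels, Krt8 rose from 0.147 to 0.873 CPM and Krt19 from 0.290 to 0.756 CPM. Cdh1 and these keratin genes were named after their values were seen. The part of the epithelial and desmosome genes in the fall of Perp was not tested.

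Of 10 tested BCL2 family genes, the partners of BAX and PUMA, 5 rose and 4 fell (median log2 fold change 0.07), beside shares of 38.5% and 37.1% among all genes. Bcl2, the founding inhibitor of cell death, rose from 5.05 ± 0.175 to 11.2 ± 0.396 CPM and Bok, a relative of Bax, 2.52-fold. Bmf, another BH3-only killer like PUMA, fell from 26.2 ± 0.067 to 7.66 ± 1.17 CPM, and the survival gene Bcl2l2 fell 1.45-fold.

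Of 13 cell cycle genes that p53 represses through p21 and the DREAM complex, 10 rose and 2 fell (median log2 fold change 0.31), each by less than 2-fold, where 38.5% of all genes rose and 37.1% fell. The lamin gene Lmnb1 and the phosphatase gene Cdc25c rose 1.61-fold and 1.47-fold. The cyclin genes Ccna2 and Ccnb2 were 1.16-fold and 1.12-fold lower, the latter no longer called without WT replicate 1 (adjusted p = 0.158). Among the other CDK inhibitors Cdkn1b, the p27 gene, rose from 80.9 ± 4.64 to 103 ± 0.766 CPM and Cdkn2c 1.26-fold. Of 10 sestrin partners in mTORC1 control 4 rose and 4 fell, all by less than 2-fold. The GATOR2 genes went both ways: Mios and Wdr24 fell 1.59-fold and 1.32-fold, while Seh1l rose 1.31-fold. The GATOR1 gene Nprl3 rose 1.35-fold.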

How the data were processed

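Expected counts were made by the authors with RSEM and deposited as 1 column per library; per the submitters' processing notes Bowtie 1.0.0, RSEM 1.2.12 and the build mm9 were used. A second table of 594 genes deposited by the authors holds log2 values, equal to log2 of the scaled expected count plus 1, and a fold ratio. Strand and poly(A) selection were not given in the sources used here. GENCODE M21 places 192 exon bases of Bax in a gene on the same strand and 273 of Cdkn1a in one on the opposite strand.

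Expected counts were rounded, filtered (filterByExpr) and compared by edgeR 4.0.16 under R 4.3.3 (TMM scaling, quasi-likelihood F test, 2 residual and 15.7 prior degrees of freedom), with Benjamini-Hochberg adjustment over 13162 genes; all 10 p53 pathway genes passed the filter. In 5 sets of simulated counts for this comparison (12905 to 12920 genes tested) the test recovered 83.6% of 1.5-fold and 90.4% of 2-fold changes, and 4.74% of calls were false. The 5 simulated sets together gave 971 calls, against 9949 in the real comparison alone. They therefore do not measure recovery or false calls where most genes differ, as here. Named genes were the 10 pathway genes, 10 regulators and targets taken whatever their values, and per list the 2 largest called changes each way at a mean of 1 CPM or more; 1 gene that this rule names is not reported here. The 10 genes and all lists were chosen with earlier results of these data known. Alternatives used limma 3.58.1 and DESeq2 1.42.0. SEs derive from the F statistic. No set test was run. Counting intervals are 95% Clopper-Pearson intervals and cover counting error only. Levels are not compared between genes, since counts grow with transcript length, except in marker sums and count ratios. Those sums, the share of a gene in them and the ratios all carry transcript lengths.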

Additional observations from a re-analysis of the deposited data

How the results depend on the processing

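Of the 10 p53 pathway genes, 9 kept their direction and stayed past the threshold in all 13 alternatives (other scalings, filters, tools, each library left out, replicate block), with a highest adjusted p of 0.0126, for Sesn2. Cdkn1a stayed lower (log2 fold change -0.18 to -0.05) but missed the threshold in 6 of them: total counts (0.273), without WT replicate 2 (0.210), upper quartile scaling (0.186), without WT replicate 1 (0.0825), the DESeq2 Wald test (0.0820) and a mean of at least 5 CPM (0.0819). Over other named genes, 3 of 529 comparisons lost the call, in Aldh4a1 (also with the DESeq2 Wald test, 0.0972) and Ccnb2. Most of these genes were named as the largest called changes in the same libraries, so keeping the call was largely set in advance. Of the 9949 genes called in the main fit, the DESeq2 Wald test also called 8674. Over all genes 9949 were called, 8678 with the DESeq2 Wald test and 10583 with no low-count filter. The share of calls that were higher was 51.0%, and 43.3% under the authors' factors, which moved the median log2 fold change of all genes to -0.08. With the replicate number as a block, 9804 genes and all 10 p53 pathway genes were called. Deviations of same-numbered libraries from their group means did not correlate (r = 0.000804 over genes), and no label says that the numbers pair the libraries.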

Other observations

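Ratios between related genes, taken within each library and so free of scaling, moved in different directions. Counts of Bax over those of Bcl2, its inhibitor, were 16.2 and 14.9 in WT and 10.2 and 8.84 in K36M, while Bax over Bcl2l1, the BCL-XL gene, was 1.23 and 1.16 in WT and 1.60 and 1.41 in K36M. Mdm2 over Mdm4 was 0.679 and 0.623 in WT and 0.977 and 1.06 in K36M, and Cdkn1a over Cdkn1b 2.17 and 2.41 in WT and 1.70 and 1.66 in K36M. In each of these 4 ratios the groups did not overlap, and no test was run on them. As the CPM values of 87.1% of all genes tested did not overlap either, this separation as such sets none of the ratios apart. A ratio of counts between 2 genes also carries their lengths, so only its change between libraries is of use.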
